A study of Mus musculus with 12 samples.

Results

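The 10 genes described here encode antioxidant enzymes, a cystine transporter subunit and the metal-binding metallothioneins. They are Sod2, Hmox1, Srxn1, Nqo1, Gclm, Gclc, Txnrd1, Slc7a11, Mt1 and Mt2, taken by symbol from the 25124 gene entries of the deposited table, and all 10 were found. The cells were MC3T3-E1, an osteoblastic line from mouse calvaria, and 12 polyA libraries were sequenced, 3 per group. The TNFa+BMP4 group received both TNFa, a cytokine of inflammation known to switch on NF-kB, and BMP4, a bone growth factor of the Smad pathway, each at 10 ng/mL. The TNFa group received TNFa alone, the BMP4 group BMP4 alone and the untreated group neither. All groups first spent 30 min in 2.5% serum; the protocol then gives a 30 min step with or without TNFa and a 3 h step with or without BMP4, while the characteristics list 3 h for both agents, so how long TNFa was present is unclear. Titles of the libraries given TNFa alone also contain an unexplained p65, which those of the TNFa+BMP4 libraries do not. Replicate 1 of each group is batch 1 in the labels and replicates 2 and 3 are batch 2, so every group is present in both batches. No label states that replicates were grown as separate cultures. The p-values therefore reflect the spread among these libraries alone, which may be technical.

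Cells counter reactive oxygen with several linked systems. The superoxide dismutase Sod2 turns superoxide into peroxide in mitochondria, while glutathione and thioredoxin supply the electrons that remove peroxide and repair oxidized proteins. Many genes of the glutathione and thioredoxin systems, together with Hmox1 and Nqo1, are known targets of the transcription factor Nrf2 (encoded by Nfe2l2), which binds antioxidant response elements and is held back by Keap1. Metallothioneins bind zinc and copper, and their genes are known to respond to zinc through the factor MTF1 at metal response elements; Sod2 is a known NF-kB target.

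TNFa+BMP4 replicate 2 had a tag total of 20.6 M, and the totals of the other 11 libraries ran from 13.7 to 15.5 M. Values are the deposited log2 values unless another scale is named; they compress differences at low levels, which among these genes bears most on Slc7a11. Of 9 osteoblast markers, 6 reached the minimum level for testing (a mean log2 value of 4), and Alpl, Bglap and Ibsp, which mark matrix maturation, did not. Their summed log2 level ran from 77.31 to 79.66 in TNFa+BMP4, 76.96 to 78.08 in TNFa, 78.38 to 81.33 in BMP4 and 77.86 to 79.39 in untreated libraries. Among markers of other cells, 2 of 6 leukocyte genes (Cd68 and Lyz2), 0 of 4 adipocyte genes, 1 of 3 endothelial genes (Pecam1) and 0 of 3 muscle genes reached it, with Adgre1, Adipoq, Plin1 and Kdr at 0 in every library. Summed leukocyte markers spanned 10.57 to 10.87 in TNFa+BMP4, 10.60 to 10.94 in TNFa, 10.44 to 10.95 in BMP4 and 10.71 to 10.93 in untreated libraries. Within these lists, the osteoblast regulator Runx2 had a log2 fold change of -0.60 ± 0.07 in TNFa against untreated libraries, Sp7 was 0.80 ± 0.12 higher in BMP4 than in untreated libraries, and Pecam1 was 0.39 ± 0.08 higher in TNFa+BMP4 than in untreated libraries (log2 ± SE, all called by limma); the part of these shifts in the results below was not tested. As checks of the treatments, the NF-kB inhibitor gene Nfkbia was 2.60 ± 0.13 higher in TNFa than in untreated libraries (log2 fold change ± SE) and the BMP target Id1 was 1.66 ± 0.08 higher in BMP4 than in untreated libraries.

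Promoter windows are shown for the 5 genes whose changes the results turn on most and for which a sequence was at hand, so that the motifs of the factors named above can be read beside the responses. Each covers 250 bases before to 50 after the transcript start, from RefSeq on GRCm38.p6, and 8 of the 10 genes had an entry whose start equals that of the deposited transcript. No entry was held for Hmox1 or Gclc. Capitals mark the metal response element core TGCNCNC in Mt2 and Mt1, the NF-kB pattern in Sod2 (GGG, any 5 bases, then CC), and the antioxidant response element core TGACNNNGC in Srxn1 and Txnrd1, on either strand. Mt2 lies at chr8:94172368-94172667, Mt1 at chr8:94178839-94179138, Sod2 at chr17:13007589-13007888, Srxn1 at chr2:152105274-152105573 and Txnrd1 at chr10:82858956-82859255, all on the plus strand.
Mt2: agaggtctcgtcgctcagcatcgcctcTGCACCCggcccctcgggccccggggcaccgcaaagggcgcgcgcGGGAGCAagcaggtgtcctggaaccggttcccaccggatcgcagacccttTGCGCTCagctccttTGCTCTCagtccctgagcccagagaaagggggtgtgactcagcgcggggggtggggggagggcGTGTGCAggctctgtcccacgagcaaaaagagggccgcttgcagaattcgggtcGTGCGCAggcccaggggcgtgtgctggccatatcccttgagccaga
Mt1: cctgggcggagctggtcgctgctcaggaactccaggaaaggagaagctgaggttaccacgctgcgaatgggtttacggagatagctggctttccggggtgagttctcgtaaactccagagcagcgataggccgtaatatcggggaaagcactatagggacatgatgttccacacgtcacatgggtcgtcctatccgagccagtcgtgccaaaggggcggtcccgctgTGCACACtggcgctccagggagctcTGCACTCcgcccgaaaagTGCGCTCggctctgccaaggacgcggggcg
Sod2: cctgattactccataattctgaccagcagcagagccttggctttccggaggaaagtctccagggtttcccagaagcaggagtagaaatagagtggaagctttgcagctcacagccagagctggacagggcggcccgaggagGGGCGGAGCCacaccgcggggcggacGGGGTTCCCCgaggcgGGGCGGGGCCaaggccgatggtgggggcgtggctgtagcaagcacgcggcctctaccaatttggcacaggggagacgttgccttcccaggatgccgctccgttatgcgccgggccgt
Srxn1: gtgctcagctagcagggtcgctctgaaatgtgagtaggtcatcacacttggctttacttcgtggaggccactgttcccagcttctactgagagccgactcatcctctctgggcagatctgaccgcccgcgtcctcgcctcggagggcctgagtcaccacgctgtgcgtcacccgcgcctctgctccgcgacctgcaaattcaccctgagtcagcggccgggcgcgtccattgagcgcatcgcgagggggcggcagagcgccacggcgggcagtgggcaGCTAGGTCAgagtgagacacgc
Txnrd1: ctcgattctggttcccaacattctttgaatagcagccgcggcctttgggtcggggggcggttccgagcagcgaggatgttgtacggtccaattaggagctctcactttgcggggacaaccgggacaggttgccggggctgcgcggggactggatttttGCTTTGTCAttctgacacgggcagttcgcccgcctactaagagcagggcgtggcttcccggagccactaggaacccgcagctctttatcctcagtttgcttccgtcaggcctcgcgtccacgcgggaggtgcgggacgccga

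The Mt2 window held 6 matches to the loose pattern TGCNCNC, the Mt1, Srxn1 and Gclm windows 3 each and the Nqo1 window 2. The fourth base was neither A nor G in TGCTCCC and TGCTCTC of Mt2. The same held for TGCCCGC and TGCCCAC of Srxn1 and for TGCTCCC and TGCCCGC of Nqo1. Of 32851 promoters of the same length, 51.0% held at least 1 match, 7.1% at least 3 and 0.225% at least 6. Mt2 also held 1 antioxidant response element core, TGACTCAGC at 79 bases before the start, whose first letters are also those of an AP-1 site; 12.4% of promoters held that core. Srxn1, Txnrd1 and Gclm held 1 such core each, and Nqo1, Slc7a11, Sod2 and Mt1 held none in this window. Only this form of the core was searched. The Srxn1 window also holds TGAGTCAGC, which differs from it in 1 letter and was neither counted nor marked. Sod2 held 4 matches to the loose NF-kB pattern, of which 2 are both strands of the palindrome GGGGTTCCCC. The rest are the GC-rich stretches GGGCGGAGCC and GGGCGGGGCC. Of all promoters, 50.8% held at least 1 match and 9.64% at least 4. Mt1 held 3 matches to this pattern, which overlap one another, Txnrd1 and Gclm 2 each, and Srxn1 and Slc7a11 1 each. A match is only a description of the letters in these windows. Counts depend on the annotated starts, and whether those are the starts used in these cells was not tested. Elements outside a window, for Mt1 as for the others, were not counted.

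TNFa alone raised most of these genes. Between TNFa and untreated libraries, 8 of the 10 were called higher and 0 lower (limma, Benjamini-Hochberg adjusted p under 0.05 over 11765 tested genes), where 15.5% of all tested genes were called, 9.16% higher and 6.32% lower. The median log2 fold change was 0.38 over the 10 genes and -0.01 over all tested genes. The largest log2 fold changes among the 10 on the deposited scale were those of the metallothionein Mt2, of Hmox1 and of Sod2; in the authors' deposited table Slc7a11 (0.65) comes before Sod2 (0.63). Nqo1 and Gclm were not called; Nqo1 was lower at an unadjusted p of 0.0192 and Gclm higher at an unadjusted p of 0.0219. The authors' deposited table calls 6 of the 10 higher in the same pair, leaving out Gclc and Slc7a11. In 7 of the 10 genes no TNFa library overlapped an untreated one, as in 17% of all tested genes. In these bulk libraries, a change in the number of cells of a type and a change in RNA per cell cannot be told apart.

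**Figure D1:**
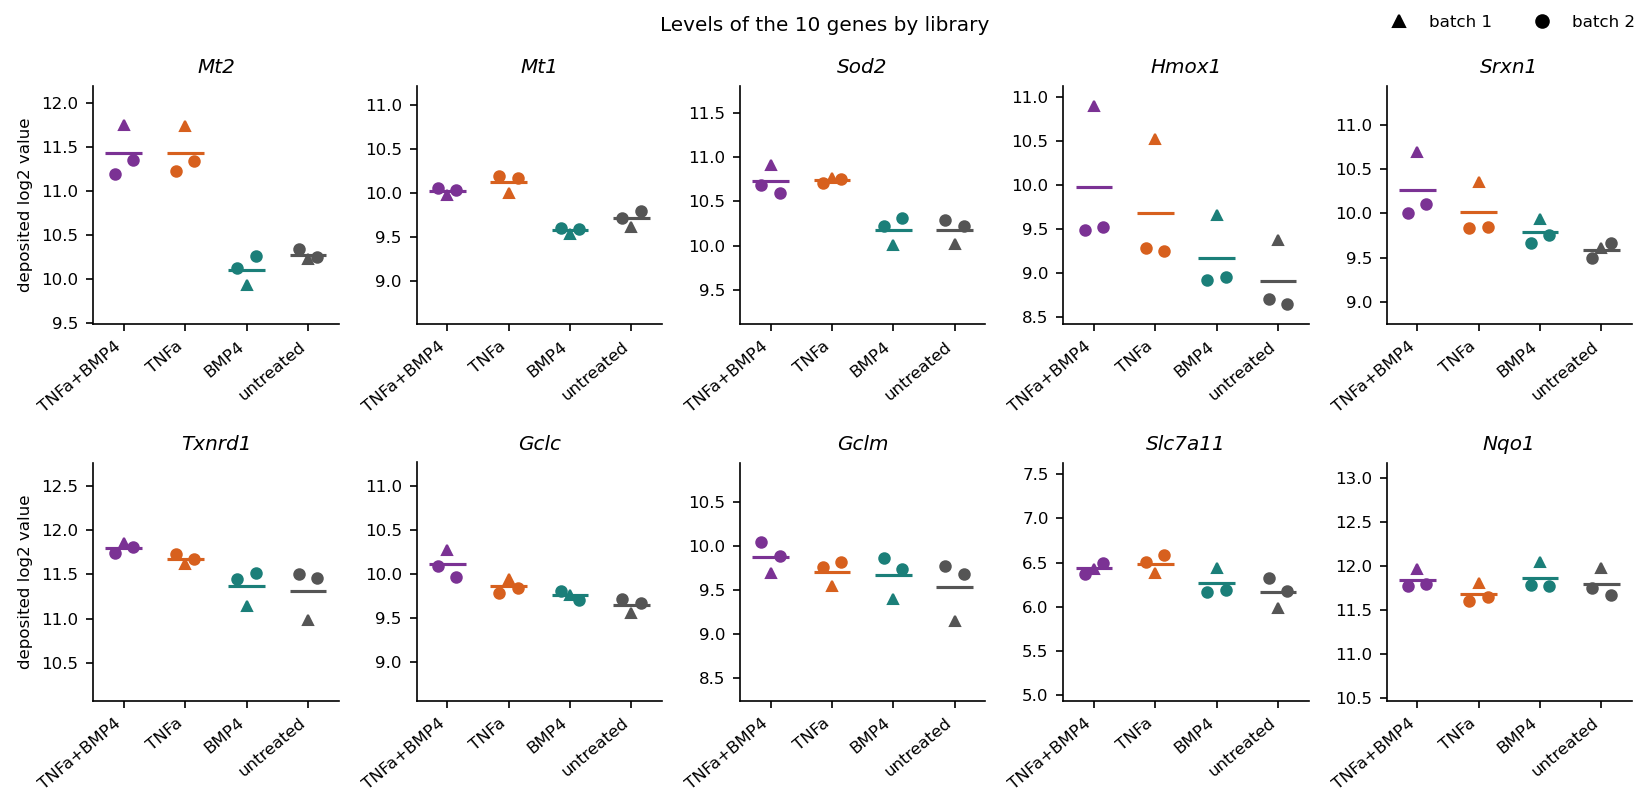
Deposited log2 value (y axis, each panel spanning the same log2 range) of the 10 genes in TNFa+BMP4, TNFa, BMP4 and untreated libraries (x axis); triangles are batch 1, circles batch 2 and bars the mean of 3 libraries. Both TNFa-containing groups stand above the others for Mt2, where all 6 of those libraries lie at or above 11.19 and the other 6 at or below 10.34, while Nqo1 shows no such split.

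Mt2, a metallothionein (NM_008630, mm10 chromosome 8, 94172618 to 94173567, plus strand), stood at 11.75, 11.19 and 11.34 in TNFa+BMP4 replicates 1 to 3, at 11.74, 11.22 and 11.34 in TNFa, at 9.93, 10.13 and 10.25 in BMP4 and at 10.23, 10.34 and 10.25 in untreated replicates. Every library with TNFa was above every library without it. The log2 fold change of TNFa against untreated was 1.16 ± 0.11 (SE, n = 3 per group; limma adjusted p = 9.1e-08), with 1.51 in batch 1 and 0.99 in batch 2. With BMP4 present in both groups, TNFa+BMP4 against BMP4, it was 1.32 ± 0.11 (limma adjusted p = 1.46e-08). The exons of Mt2 overlap those of the antisense gene Gm45774 by 432 bases, and whether the counting used strand is not given in the sources used here, so reads of the pair may not be told apart.

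Mt1, its neighbour (NM_013602, chromosome 8, 94179089 to 94180327, plus strand), starts 5521 bases after the end of Mt2. Its levels were 9.98, 10.05 and 10.03 in TNFa+BMP4, 10.00, 10.19 and 10.17 in TNFa, 9.54, 9.60 and 9.59 in BMP4 and 9.61, 9.72 and 9.80 in untreated libraries. Here too the libraries with TNFa stood above all those without it, by less. TNFa against untreated gave 0.41 ± 0.05 (limma adjusted p = 6.57e-06), with 0.39 in batch 1 and 0.42 in batch 2, and TNFa+BMP4 against BMP4 gave 0.45 ± 0.05 (limma adjusted p = 2.38e-06).

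The gap between the 2 metallothioneins was wider with TNFa. Mt2 minus Mt1 within a library was 1.77, 1.14 and 1.31 in TNFa+BMP4, 1.73, 1.03 and 1.17 in TNFa, 0.39, 0.52 and 0.67 in BMP4 and 0.61, 0.62 and 0.45 in untreated libraries (log2). It averaged 1.36 ± 0.32 with TNFa and 0.54 ± 0.11 without (SD, n = 6 each), and the groups did not overlap. The difference between libraries with and without TNFa was 1.25 in batch 1 and 0.60 in batch 2. Their average, which weights the batches equally, was 0.92, with a two-sided exact permutation p of 0.00476 within batches, the smallest that the 420 arrangements can give; this contrast was chosen after the values were seen. The longest stretch shared by the transcripts is 20 bases, against reads of 150 bases.

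**Figure D2:**
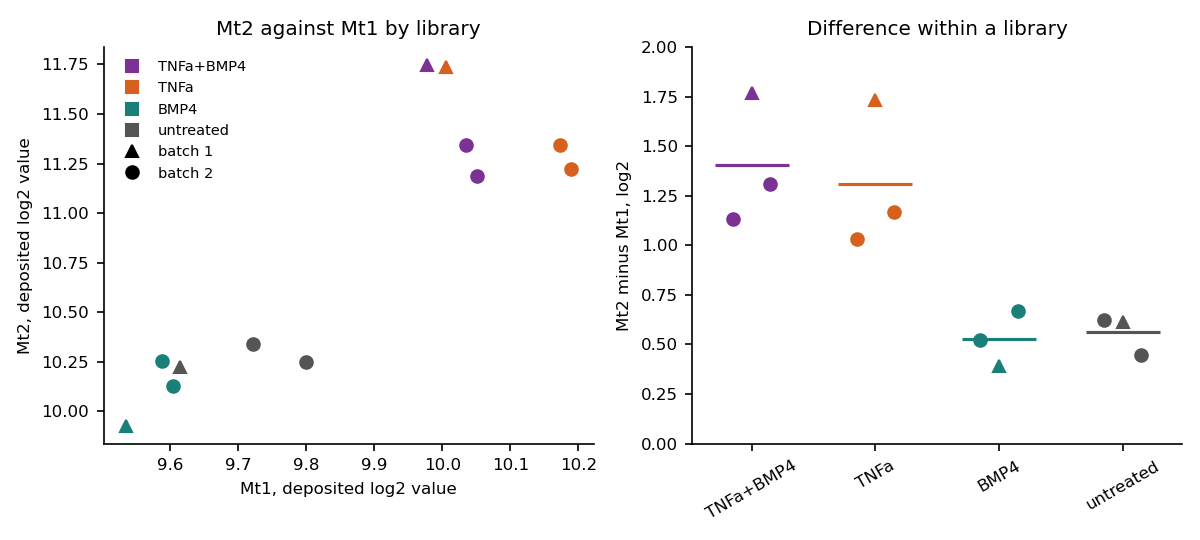
Left, deposited log2 value of Mt2 (y axis) against Mt1 (x axis) in each of the 12 libraries; right, Mt2 minus Mt1 (log2, y axis) by group, with bars at the mean of 3 libraries, triangles for batch 1 and circles for batch 2. Libraries with TNFa run from 1.03 to 1.77 on the right and those without it from 0.39 to 0.67.

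Sod2, the mitochondrial manganese superoxide dismutase (NM_013671, chromosome 17, 13007839 to 13018119, plus strand), stood at 10.91, 10.69 and 10.59 in TNFa+BMP4, 10.77, 10.71 and 10.76 in TNFa, 10.00, 10.22 and 10.31 in BMP4 and 10.02, 10.29 and 10.22 in untreated libraries. Libraries with and without TNFa did not overlap. TNFa raised it by 0.57 ± 0.08 over untreated (limma adjusted p = 2.64e-05; 0.75 in batch 1 and 0.48 in batch 2) and by 0.55 ± 0.08 in the presence of BMP4 (limma adjusted p = 4.04e-05). The other genes of superoxide and peroxide removal in the same table, Sod1, Sod3, Cat and Ccs, were all tested. With TNFa alone 0 of 4 were called by limma, beside 15.5% of all tested genes, and 0 had an unadjusted p under 0.05. Sod1, the cytosolic dismutase, had a log2 fold change of -0.01 ± 0.05 (limma adjusted p = 0.917). With BMP4 present, Cat, the peroxide-removing catalase, was called lower in TNFa+BMP4 against BMP4 libraries (-0.22 ± 0.06, limma adjusted p = 0.0242) and against untreated libraries (-0.23 ± 0.06), so 1 of the 4 passed there, against 7.41% and 14.4% of tested genes called lower. Its TNFa effect over both BMP4 settings was -0.29 in batch 1 and -0.06 in batch 2.

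Hmox1 encodes heme oxygenase 1, which breaks heme down to biliverdin, iron and carbon monoxide (NM_010442, chromosome 8, 75093618 to 75100593, plus strand). Its levels were 10.90, 9.50 and 9.53 in TNFa+BMP4, 10.53, 9.29 and 9.26 in TNFa, 9.66, 8.92 and 8.96 in BMP4 and 9.38, 8.71 and 8.65 in untreated libraries. Replicate 1, the batch 1 library, was the highest of each group, so TNFa and untreated libraries overlapped across batches although the difference was positive within each. TNFa against untreated gave 0.78 ± 0.11 (limma adjusted p = 1.46e-05), with 1.15 in batch 1 and 0.59 in batch 2, and TNFa+BMP4 against BMP4 gave 0.80 ± 0.11 (limma adjusted p = 1.13e-05). Of the 6 other tested genes of heme and iron handling, 1 was called with TNFa alone, beside 15.5% of all tested genes. It was Fth1, the ferritin heavy chain that stores iron (0.35 ± 0.05, limma adjusted p = 2.92e-05). In TNFa+BMP4 against TNFa libraries 1 of the 6, Tfrc, was called lower, beside 6.2% of all tested genes.

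Srxn1, sulfiredoxin, restores overoxidized peroxiredoxins (NM_029688, chromosome 2, 152105524 to 152111376, plus strand). It stood at 10.70, 10.00 and 10.10 in TNFa+BMP4, 10.35, 9.84 and 9.85 in TNFa, 9.94, 9.66 and 9.76 in BMP4 and 9.60, 9.49 and 9.67 in untreated libraries. All TNFa libraries were above all untreated ones. The TNFa response was 0.43 ± 0.09 over untreated (limma adjusted p = 0.00214; 0.75 in batch 1 and 0.26 in batch 2) and 0.48 ± 0.09 in the presence of BMP4 (limma adjusted p = 0.000666). Without untreated replicate 1 the difference from untreated was 0.28 (limma adjusted p = 0.0327).

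Txnrd1, the cytosolic thioredoxin reductase (NM_001042513, chromosome 10, 82859206 to 82897724, plus strand), stood at 11.85, 11.74 and 11.81 in TNFa+BMP4, 11.62, 11.73 and 11.67 in TNFa, 11.15, 11.45 and 11.52 in BMP4 and 10.99, 11.50 and 11.46 in untreated libraries. Libraries with TNFa were again all above those without. TNFa raised it by 0.36 ± 0.08 over untreated (limma adjusted p = 0.00288; 0.63 in batch 1 and 0.22 in batch 2) and by 0.43 ± 0.08 in the presence of BMP4 (limma adjusted p = 0.000509). Without untreated replicate 1 the TNFa difference from untreated was 0.23 (limma adjusted p = 0.0434). Of the 12 other thioredoxin and peroxiredoxin genes, 0 were called higher with TNFa alone and 1 lower, the thioredoxin inhibitor Txnip (-0.36 ± 0.05, limma adjusted p = 3.53e-05), against 9.16% higher and 6.32% lower among all tested genes. In TNFa+BMP4 against BMP4 libraries 2 of the 12 were called higher, thioredoxin Txn1 (0.19 ± 0.05) and the peroxiredoxin Prdx2 (0.16 ± 0.05), and Txnip again lower (-0.34 ± 0.05), against 8.78% higher and 7.41% lower. Prdx2 was also called in TNFa+BMP4 against untreated libraries (0.20 ± 0.05). The fall of Txnip was not particular to TNFa. With BMP4 alone it was the 1 of the 12 called lower, beside 5.47% of all tested genes. Its mean was 12.15 in BMP4 and 12.53 in untreated libraries. In TNFa+BMP4 against TNFa libraries Prdx2 was called higher and Txnip lower, 1 each of the 12, beside 5.47% and 6.2%.

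Glutathione synthesis was represented by both subunits of its first enzyme and by the transporter of its cystine supply. Gclc, the catalytic subunit of glutamate-cysteine ligase (listed as NR_151778, chromosome 9, 77754535 to 77794489, plus strand), stood at 10.26, 10.09 and 9.97 in TNFa+BMP4, 9.94, 9.78 and 9.84 in TNFa, 9.76, 9.80 and 9.71 in BMP4 and 9.56, 9.72 and 9.67 in untreated libraries. All 3 TNFa libraries were above all 3 untreated ones. TNFa against untreated gave 0.21 ± 0.07 (limma adjusted p = 0.0428; 0.39 in batch 1 and 0.12 in batch 2). That call held in 5 of 12 fits that left out 1 library: it was lost without TNFa replicate 1, 2 or 3, untreated replicate 1 or 3, TNFa+BMP4 replicate 2 or BMP4 replicate 3, with the largest adjusted p of 0.347 and a fold change of 0.12 without untreated replicate 1. The authors' deposited table does not call it either (adjusted p 0.0592).

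Gclm, the modifier subunit of the same ligase (NM_008129, chromosome 3, 122245557 to 122267215, plus strand), stood at 9.69, 10.05 and 9.88 in TNFa+BMP4, 9.55, 9.75 and 9.82 in TNFa, 9.39, 9.86 and 9.74 in BMP4 and 9.14, 9.77 and 9.68 in untreated libraries. The groups overlapped, and replicate 1 was the lowest of each. TNFa against untreated was 0.18 ± 0.07 and was not called (limma adjusted p = 0.107; 0.41 in batch 1 and 0.06 in batch 2). It was at 0.08 without untreated replicate 1 (limma adjusted p = 0.576) and was called without untreated replicate 2 (0.24, limma adjusted p = 0.048). Its exons overlap the antisense gene Gm17494 by 296 bases and the pseudogene Gm6061 by 244, so its value is uncertain to that extent.

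Slc7a11, the cystine-importing subunit of the cystine/glutamate exchanger (NM_011990, chromosome 3, 50364936 to 50443613, minus strand), was the lowest of the 10. It stood at 6.43, 6.37 and 6.50 in TNFa+BMP4, 6.38, 6.50 and 6.58 in TNFa, 6.44, 6.17 and 6.18 in BMP4 and 5.99, 6.32 and 6.18 in untreated libraries. TNFa and untreated libraries did not overlap, with a log2 fold change of 0.33 ± 0.10 (limma adjusted p = 0.023; 0.40 in batch 1 and 0.29 in batch 2). At this level the deposited scale is compressed: the authors' deposited table gives 0.65 for the same pair, with an adjusted p of 0.0616 that is not a call. The limma call was lost without TNFa replicate 2 or 3 or without untreated replicate 1 or 3, with a largest adjusted p of 0.201.

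Nqo1, a quinone reductase and a much used readout of Nrf2 activity (NM_008706, chromosome 8, 107388225 to 107403205, minus strand), did not follow the others. It stood at 11.96, 11.78 and 11.79 in TNFa+BMP4, 11.81, 11.60 and 11.65 in TNFa, 12.05, 11.78 and 11.77 in BMP4 and 11.98, 11.75 and 11.67 in untreated libraries. TNFa against untreated was -0.11 ± 0.05 and was not called (limma adjusted p = 0.097; 95% confidence interval -0.21 to -0.02), with -0.17 in batch 1 and -0.09 in batch 2. TNFa+BMP4 against BMP4 was -0.02 ± 0.05 (limma adjusted p = 0.795).

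TNFa and BMP4 together left 9 of the 10 genes higher than in untreated libraries and 0 lower, where 31.2% of tested genes were called, 16.8% higher and 14.4% lower. Mt2 was 1.15 ± 0.11 higher, Hmox1 1.06 ± 0.11, Srxn1 0.68 ± 0.09 and Sod2 0.56 ± 0.08, each with a limma adjusted p of 2.15e-05 or less. Txnrd1 (0.48 ± 0.08), Gclc (0.46 ± 0.07), Gclm (0.34 ± 0.07), Mt1 (0.31 ± 0.05) and Slc7a11 (0.27 ± 0.10) also rose, and Nqo1 did not pass (0.04 ± 0.05, limma adjusted p = 0.491). Gclm, not called with TNFa alone, had a limma adjusted p of 0.000925 here, but this and the TNFa comparison share the untreated libraries. The Slc7a11 call (adjusted p = 0.0364) was lost without TNFa+BMP4 replicate 1 or 3 or untreated replicate 1 or 3, with a largest adjusted p of 0.256, and it is not a call in the authors' deposited table (adjusted p 0.14).

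With BMP4 present in both groups, TNFa raised 7 of the 10 (TNFa+BMP4 against BMP4), where 16.2% of tested genes were called, 8.78% higher and 7.41% lower. These were Mt2, Hmox1, Sod2, Srxn1, Mt1, Txnrd1 and Gclc, and the authors' deposited table calls the same genes. Gclc was 0.35 ± 0.07 higher (limma adjusted p = 0.000827), Gclm 0.21 ± 0.07 (0.0521) and Slc7a11 0.17 ± 0.10 (0.267). Gclm was called in 5 of 12 fits that left out 1 library, namely TNFa+BMP4 replicate 3, TNFa replicate 1, BMP4 replicate 2 or untreated replicate 1 or 2, and Slc7a11 without BMP4 replicate 1 (0.30, limma adjusted p = 0.0358); without BMP4 replicate 2, Slc7a11 was at 0.11 (0.577). The interaction, which asks whether the TNFa response differed with BMP4, was called for 0 of the 10 genes by limma, with 0 at an unadjusted p under 0.05 and a lowest adjusted p of 0.993; 0.017% of tested genes, 2 in all, were called. The 95% confidence interval of the interaction was -0.16 to 0.49 for Mt2 and -0.30 to 0.33 for Hmox1.

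**Figure D3:**
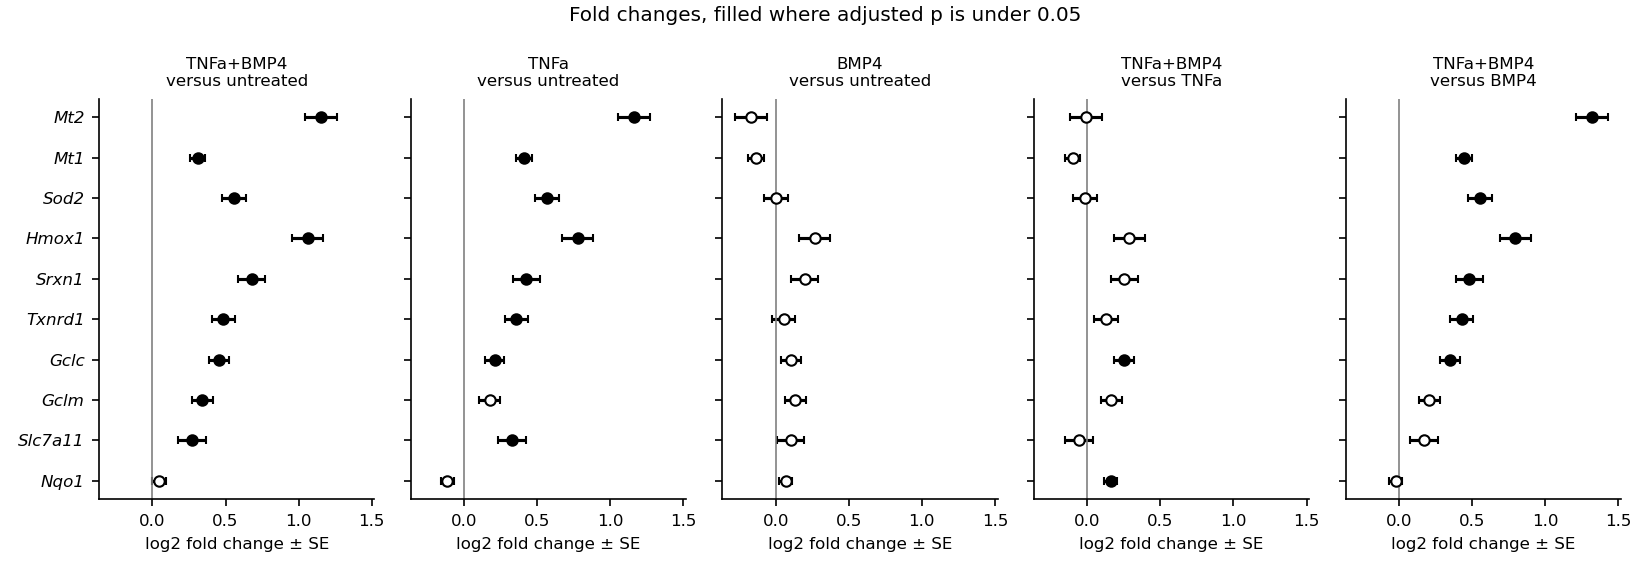
Log2 fold change ± SE (x axis) of the 10 genes (rows) in 5 comparisons of groups (panels), from 1 limma fit with a batch term; filled points have an adjusted p under 0.05. The TNFa+BMP4 against untreated, TNFa against untreated and TNFa+BMP4 against BMP4 panels have 9, 8 and 7 filled points, the BMP4 against untreated panel has 0 and the TNFa+BMP4 against TNFa panel has 2.

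No gene of the 10 passed with BMP4 alone. Between BMP4 and untreated libraries limma called 0 of 10, where 12.2% of tested genes were called, 6.75% higher and 5.47% lower; 3 passed an unadjusted p under 0.05, namely Hmox1 (0.27 ± 0.11, adjusted p = 0.11), Srxn1 (0.20 ± 0.09, adjusted p = 0.177) and Mt1 (-0.14 ± 0.05, adjusted p = 0.103). Hmox1 is called in the authors' deposited table (0.32, adjusted p 0.0416), and limma called it without BMP4 replicate 1 (0.40, adjusted p = 0.0203) or without TNFa+BMP4 replicate 1 (adjusted p = 0.0382). Srxn1 was called without untreated replicate 3 (0.30, adjusted p = 0.0424). Within batches, Hmox1 differed by 0.28 in batch 1 and 0.26 in batch 2, and Srxn1 by 0.33 and 0.13. In batch 2 alone limma called Hmox1 (0.26, adjusted p = 0.00987) and not Srxn1. Without untreated replicate 1, the fit over both batches put Hmox1 at 0.13 (adjusted p = 0.584) and Srxn1 at 0.05 (adjusted p = 0.811), each below its difference in either batch. For Sod2 the log2 fold change was 0.00 ± 0.08, with a 95% confidence interval of -0.17 to 0.17.

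Added to TNFa, BMP4 gave 2 calls of 10, both higher, in TNFa+BMP4 against TNFa libraries, where 11.7% of tested genes were called, 5.47% higher and 6.2% lower. Gclc was 0.25 ± 0.07 higher (limma adjusted p = 0.0204; 0.32 in batch 1 and 0.21 in batch 2) and Nqo1 0.16 ± 0.05 (limma adjusted p = 0.025; 0.15 in batch 1 and 0.16 in batch 2). All 3 Gclc libraries of TNFa+BMP4 were above the 3 of TNFa, while those of Nqo1 overlapped. Hmox1 (0.29 ± 0.11, adjusted p = 0.0893) and Srxn1 (0.25 ± 0.09, adjusted p = 0.0786) were not called by limma and are called in the authors' deposited table. Within batches, Hmox1 differed by 0.37 in batch 1 and 0.24 in batch 2, and Srxn1 by 0.35 and 0.21. In batch 2 alone limma called both (adjusted p = 0.0182 and 0.0302). Without TNFa+BMP4 replicate 1, the fit over both batches put them at 0.12 each, below the difference in either batch. The count of calls among the 10 genes ran from 0 to 4 as 1 library was left out. Gclc was lost without TNFa+BMP4 replicate 1 or 2 or TNFa replicate 2 or 3 (largest adjusted p 0.179), and Nqo1 without TNFa+BMP4 replicate 2 or 3 or TNFa replicate 1 or 2 (largest adjusted p 0.128).

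Averaged over both TNFa settings, so that all 12 libraries enter, BMP4 raised 5 of the 10 genes and lowered 1, where 24.5% of tested genes were called, 12.5% higher and 12% lower. This average was added after the separate values were seen. Hmox1 was 0.28 ± 0.08 higher (limma adjusted p = 0.0103), with 0.33 in batch 1 and 0.25 in batch 2. Srxn1 was 0.23 ± 0.06 higher (0.0145), Gclc 0.18 ± 0.05 (0.01), Gclm 0.15 ± 0.05 (0.0352) and Nqo1 0.11 ± 0.03 (0.0125), by the same test. Mt1 fell by 0.12 (SE 0.04; limma adjusted p = 0.0252), and Mt2 at -0.09 ± 0.08 was not called (0.455). Of 12 fits that each left out 1 library, Hmox1, Gclc and Nqo1 were called in 12, Srxn1 in 10, and Gclm and Mt1 in 6. Srxn1 was lost without replicate 1 of TNFa+BMP4 or untreated (largest adjusted p 0.0568), Gclm without TNFa+BMP4 replicate 1 or 2, TNFa replicate 2 or 3, BMP4 replicate 2 or untreated replicate 1 (0.133), and Mt1 without TNFa+BMP4 or TNFa replicate 2 or 3 or replicate 3 of BMP4 or untreated (0.0693). Under quantile normalization Nqo1 was lower in size and not called (0.06, adjusted p = 0.22), and with no minimum level Hmox1 (0.0523), Srxn1 (0.0619) and Gclm (0.0819) were not called. The summed osteoblast markers given above reached their highest value in a BMP4 library, and their part in these changes was not tested.

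The TNFa response was larger in batch 1 for 5 of the 10 genes. The TNFa effect over both BMP4 settings was 1.66 in batch 1 and 1.03 in batch 2 for Mt2, a difference of 0.63 ± 0.07 (limma adjusted p = 2.91e-08), and 1.20 and 0.58 for Hmox1, a difference of 0.61 ± 0.08 (adjusted p = 7.88e-07). Srxn1 differed by 0.45 (0.76 and 0.30; adjusted p = 0.000141), Txnrd1 by 0.41 (0.67 and 0.26; adjusted p = 7.19e-06) and Sod2 by 0.40 (0.83 and 0.43; adjusted p = 0.000125). Mt1 gave 0.42 in batch 1 and 0.43 in batch 2 (limma adjusted p of the difference 0.951), and Gclc, Gclm, Slc7a11 and Nqo1 were not called either. Among all tested genes 4.28% differed between batches, 2.05% with the higher effect in batch 1 and 2.23% with the lower. The 1078 genes that TNFa raised had a median effect of 0.38 in batch 1 and 0.31 in batch 2. Batch 1 holds 1 library per group, so this fit takes its spread from the pairs of batch 2 and assumes that batch 1 libraries vary alike; what the batches are is not given beyond their number.

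**Figure D4:**
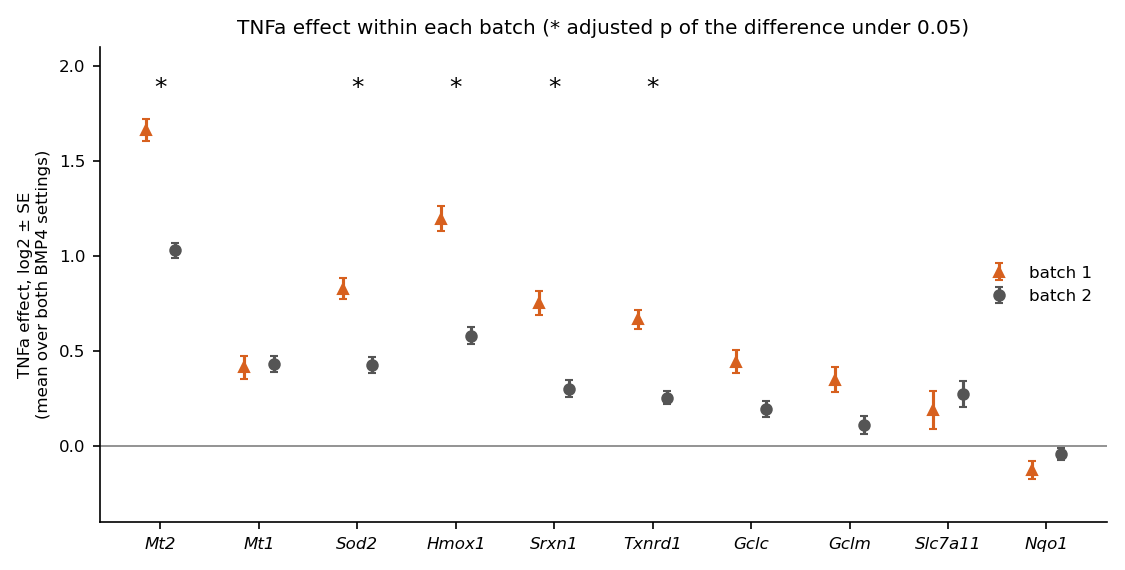
TNFa effect (log2 ± SE, y axis; mean over libraries with and without BMP4) of the 10 genes (x axis) in batch 1 (triangles) and batch 2 (circles), with an asterisk where the adjusted p of the difference is under 0.05. Mt2, Sod2, Hmox1, Srxn1 and Txnrd1 carry an asterisk, while the Mt1 effects of 0.42 and 0.43 coincide.

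Per kilobase of transcript, the order of levels also shifted. In TNFa libraries Mt2 stood highest at 12.29 (mean log2 per kb), above Nqo1 at 11.06 and Mt1 at 11.02, which differed by less than the spread between replicates, and Slc7a11 lowest at 3.29. In untreated libraries Nqo1 at 11.17 and Mt2 at 11.13 were likewise not apart beyond that spread, followed by Mt1 at 10.61 and Txnrd1 at 9.55. Gclm (8.49), Hmox1 (8.26), Sod2 (8.24) and Srxn1 (8.10) were not clearly apart, since neighbours among them differed by about the SD of a group or less, and Gclc (7.79) and Slc7a11 (2.96) came after them. Length alone was divided out here, and the compressed scale makes low levels approximate.

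Most regulators of these pathways rose with TNFa. Of 10 regulators of Nrf2 and of the metal response, 7 were called higher with TNFa alone and 0 lower, beside 9.16% higher and 6.32% lower among all tested genes, and Keap1, Mafk and Mtf1 were not called. Their median log2 fold change was 0.40. With TNFa+BMP4 against untreated, 7 were called higher and 1 lower, beside 16.8% and 14.4%. BMP4 alone gave 1 higher, Maff, and 1 lower, Keap1, beside 6.75% and 5.47%. Nfe2l2, encoding Nrf2, stood at 10.69, 10.68 and 10.77 in TNFa+BMP4, 10.71, 10.75 and 10.72 in TNFa, 9.47, 10.01 and 9.91 in BMP4 and 9.70, 9.92 and 9.97 in untreated libraries. Libraries with and without TNFa did not overlap, and TNFa against untreated was 0.86 ± 0.08 (limma adjusted p = 2.48e-08). Maff, a small Maf partner of Nrf2, rose by 1.10 ± 0.14 and Nfe2l1, a related factor, by 0.60 ± 0.05. Bach1, a repressor that competes at the same elements, rose by 0.51 ± 0.07. Maff stood at 8.58, 7.71 and 7.71 in TNFa and 7.02, 6.75 and 6.92 in untreated libraries, so its rise was larger in batch 1 (replicate 1). Keap1, which targets Nrf2 for degradation, was not called with TNFa (0.04 ± 0.06, limma adjusted p = 0.738) and was lower with BMP4 (-0.32 ± 0.06, limma adjusted p = 0.000856).

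On the metal side, Mtf1, the zinc-sensing factor, had a log2 fold change of 0.00 ± 0.06 with TNFa (limma adjusted p = 0.992), and Slc30a1, a zinc exporter gene and known MTF1 target, -0.11 ± 0.08 (limma adjusted p = 0.413). Of 6 tested genes of zinc and metal transport, 0 were called with TNFa alone by limma, with 0 at an unadjusted p under 0.05, and 1 with BMP4 alone, Slc39a14, a zinc and iron importer (0.70 ± 0.10, limma adjusted p = 6.67e-05); these counts stand beside 15.5% and 12.2% of all tested genes called. TNFa+BMP4 against untreated gave 2 of 6, Slc39a6 (0.22 ± 0.07) and Slc39a14 (0.59 ± 0.10), beside 31.2%, and the BMP4 average 3 of 6, those genes and Slc30a5, beside 24.5%. For Slc39a14 the TNFa effect was 0.25 in batch 1 and -0.19 in batch 2 (limma adjusted p of the difference 5.9e-05). The metallothionein genes Mt3 and Mt4 were below the minimum level.

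Among the remaining enzymes, 15 of 18 genes of glutathione synthesis and use were tested, and with TNFa 2 were called higher, glutathione synthetase Gss (0.21 ± 0.07) and Ggct (0.42 ± 0.08), and 0 lower, beside 15.5% of all tested genes called. With BMP4, 1 of the 15 was called, glutathione reductase Gsr (-0.42 ± 0.10, limma adjusted p = 0.00568), beside 12.2%. The BMP4 effect on Gsr over both TNFa settings was -0.75 in batch 1 and -0.30 in batch 2. TNFa+BMP4 against untreated gave 3 higher and 2 lower of the 15, beside 31.2% called: Gss (0.27 ± 0.07), Ggct (0.32 ± 0.08) and Chac1 (0.33 ± 0.08) were higher, and Gsr (-0.48 ± 0.10) and Mgst3 (-0.26 ± 0.08) lower. NADPH feeds both reductase systems. Of its 6 genes, TNFa raised Pgd (0.20 ± 0.06) and lowered Idh1 (-0.30 ± 0.06), beside 9.16% higher and 6.32% lower among all tested genes. BMP4 raised Me1 (0.44 ± 0.06) and G6pdx (0.24 ± 0.06) and lowered Idh1 (-0.25 ± 0.06), beside 6.75% and 5.47%. TNFa+BMP4 against untreated gave 3 higher and 1 lower of the 6, beside 16.8% and 14.4%. Of 5 tested sources of reactive oxygen, 1 was called lower with TNFa alone, beside 6.32% of all tested genes. It was Duox1, an NADPH oxidase gene (-0.21 ± 0.07), which was not called in TNFa+BMP4 against BMP4 libraries (-0.01 ± 0.07). Its mean log2 value of 4.42 is close to the minimum level, where differences are most compressed. Xdh was the 1 called lower with BMP4 alone (-0.36 ± 0.07), beside 5.47%. Nox1 was the 1 called lower in TNFa+BMP4 against untreated libraries (-0.24 ± 0.09), beside 14.4%. Nos2, the inducible nitric oxide synthase, was just under the minimum level for testing; it stood at 4.29, 4.13 and 3.89 in TNFa+BMP4, 4.62, 4.08 and 4.34 in TNFa, 3.65, 3.63 and 3.63 in BMP4 and 3.63, 3.63 and 3.62 in untreated libraries. Every Nos2 value with TNFa was above every value without it. In TNFa+BMP4 against untreated libraries, Txnip reached -0.72 ± 0.05, Maff 1.64 ± 0.14 and Keap1 -0.25 ± 0.06.

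**Figure D5:**
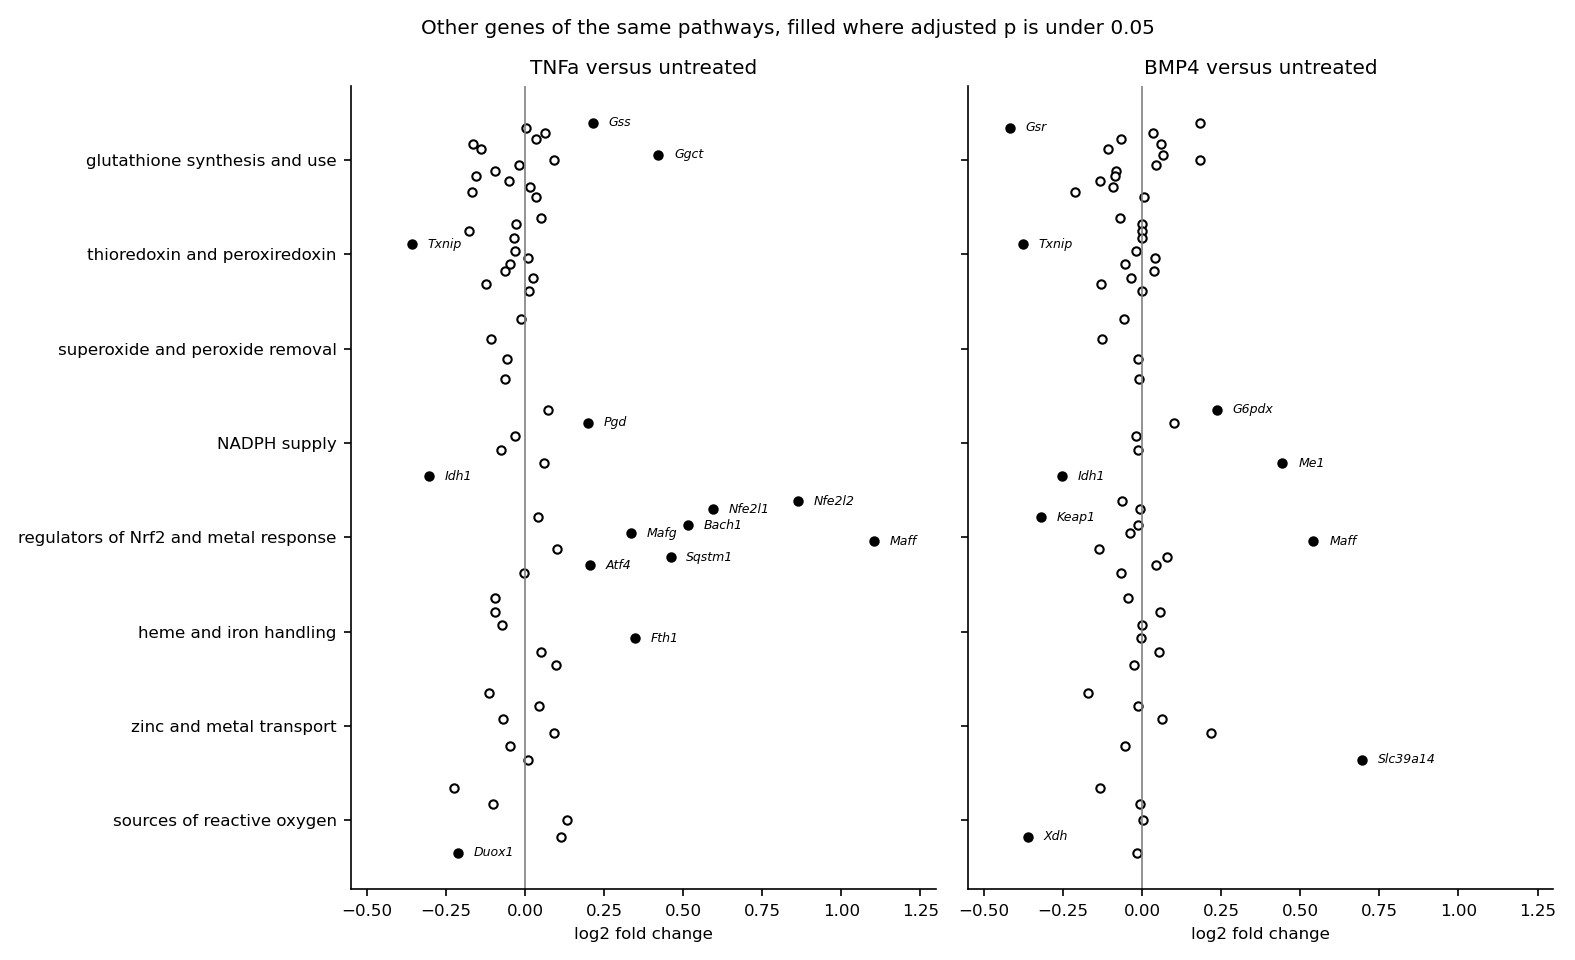
Log2 fold change (x axis) of the tested genes of 8 related lists (rows, 1 point per gene) for TNFa against untreated (left) and BMP4 against untreated (right); filled, named points have a limma adjusted p under 0.05. On the left 7 of 10 regulators are filled and higher, and 0 of the 4 superoxide and peroxide genes and 0 of the 6 metal transport genes are.

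The genes whose batch-centred values ran most like those of each gene over the 12 libraries are given by Pearson correlation, as a description, since all share the treatment groups and libraries. For Mt2 they were Plscr1 (0.993), Plk2 (0.993) and Nfe2l2 (0.99), and for Mt1 Frmd6 (0.991), Apobec3 (0.99) and Pdzd2 (0.989). Sod2 ran with Abcb1b (0.984), Traf1 (0.981) and Nfkb1 (0.979), the last an NF-kB subunit gene, and Hmox1 with Map2k3 (0.993), St3gal1 (0.988) and Riok3 (0.988). Srxn1 was nearest to Wwtr1 (0.974), Fstl1 (0.973) and Eif5a (0.973), and Txnrd1 to Fstl1 (0.977), Map2k3 (0.975) and Hmox1 itself (0.974). Gclm had its ligase partner Gclc among its 3 nearest (0.96). The nearest to Nqo1 was Mindy4 at 0.95.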

How the data were processed

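The data are 12 polyA RNA-seq libraries of MC3T3-E1 cells, 3 per group, sequenced as 150 bp paired-end reads. Per the submitters' processing notes, Trim Galore, HISAT2 and HOMER were used with mm10; versions are not given in the sources used here. HOMER summed exon reads for a single transcript per gene and ran its differential step with batch as a factor, per the file headers. The authors deposited log2 values per library, by a transformation not named, together with their log2 fold changes, p-value and adjusted p-value per pair of groups. The file holds no counts, so limma 3.58.1 (R 4.3.3) was fitted to the log2 values of all 12 libraries, with 4 groups, an additive batch term, and a variance trend (7 residual degrees of freedom). Testing was limited to the 11765 of 25124 entries whose mean log2 value reached 4 (7423 are at 0 throughout); tests were two-sided, with Benjamini-Hochberg adjustment within each comparison and calls at 0.05. The fit was tested on simulated data with independent normal noise and an additive batch shift. Effects that differ between batches were not simulated. The 10 genes, the companion lists and the markers were chosen with earlier results of these data known. Named beyond the 10 genes are the called companions, at most 3 per list and comparison by size, and the 3 genes most correlated with a gene. An exception is glutathione synthesis and use, where all genes called in TNFa+BMP4 against untreated libraries are named. Nfe2l2, Keap1, Mtf1, Slc30a1, Sod1, Nfkbia and Id1 are named besides. Bach1, Nos2 and the markers Runx2, Sp7 and Pecam1 were added after their values were seen. Batch numbers are those of the labels; the file header numbers them the other way round. Differences between libraries, set against the authors' fold changes, had slopes of 0.259, 0.55, 0.795 and 0.916 at mean levels of 4 to 6, 6 to 8, 8 to 10 and over 10. Motifs were counted in RefSeq promoters, and exon overlaps come from GENCODE on GRCm38. Alternatives were no batch term, batch 2 alone, other minimum levels, no variance trend, quantile normalization, a replicate block and leaving out each library.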

Additional observations from a re-analysis of the deposited data

Results flagged for a closer look

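The TNFa effect, averaged over both BMP4 settings, differed between the batches for 5 of the 10 genes by the limma test of that difference. The batch 1 minus batch 2 difference was 0.6333 for Mt2, 0.6139 for Hmox1, 0.4518 for Srxn1, 0.4118 for Txnrd1 and 0.4015 for Sod2 on the log2 scale. Batch 1 was the larger in each.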

How the results depend on the processing

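No called result for the 10 genes reversed direction under the alternatives run. Without the batch term the calls among the 10 genes fell to 3 for TNFa against untreated, 5 for TNFa+BMP4 against untreated, 0 for TNFa+BMP4 against TNFa, 3 for TNFa+BMP4 against BMP4 and 0 for the BMP4 average, and calls over all genes to 383, 869, 105, 345 and 454 in the same comparisons, 114 for BMP4 against untreated and 0 for the interaction. In batch 2 alone, BMP4 against untreated gave 1 call among the 10, beside 663 higher and 601 lower of 11765 tested genes. TNFa+BMP4 against TNFa gave 4 among the 10, beside 644 higher and 620 lower of 11765. The interaction gave 15 over all genes. With no minimum level, 17701 genes were tested. TNFa+BMP4 against TNFa then gave 1 call among the 10 and 906 over all genes, and the interaction 0. The BMP4 average gave 3 among the 10, beside 1218 higher and 1194 lower over all genes. The batch difference gave 148 over all genes, and Srxn1 was not called in it (limma adjusted p 0.0676). With no variance trend, TNFa+BMP4 against TNFa gave 1 call among the 10, beside 507 higher and 640 lower of 11765 tested genes. The batch difference then gave 179 over all genes. With quantile normalization, TNFa+BMP4 against TNFa gave 1 among the 10, beside 575 higher and 777 lower of 11765. The interaction then gave 1 over all genes. The Gclc call of TNFa against untreated had an adjusted p of 0.0981 with no minimum level, 0.0758 with no trend, 0.0706 with quantile normalization and 0.239 in batch 2 alone. In the BMP4 average, Gclm was not called with no trend (0.0603) or quantile normalization (0.05). The cause of these shifts was not tested.

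Leaving out 1 library at a time, calls among the 10 genes ran from 6 to 9 for TNFa against untreated, 0 to 1 for BMP4 against untreated, 8 to 9 for TNFa+BMP4 against untreated, 0 to 4 against TNFa, 7 to 8 against BMP4, 4 to 6 for the BMP4 average and 5 to 7 for the batch difference. Over all genes they ran from 1297 to 2084, 756 to 1642, 2560 to 4014, 752 to 1726, 1320 to 2094, 2307 to 2788 and 345 to 817 in the same order, and 0 to 7 for the interaction. The Mt2 minus Mt1 difference ran from 0.867 to 0.977.

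A replicate block in place of batch lost 1 call among the 10, Gclc in TNFa against untreated (adjusted p 0.0515), and gave 1 interaction call over all genes. Within batch 2 the deviations of same-numbered replicates correlated at 0.0199 to 0.164, so the numbers were not taken as pairs.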
